A study of Zea mays with 33 samples.

Results

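Transcript levels of 4 maize glossy genes were followed in 11 tissues of the inbred line B73. The genes were chosen by name and identifier: gl1 (Zm00001d020557), gl2 (Zm00001d002353), gl8 (Zm00001d017111) and gl15 (Zm00001d046621). They are 4 of the 46430 genes counted, and all 4 passed the filter on low counts that left 28997 genes for testing. The rule that picked them names the genes and uses no measured value, although it was written with earlier results of these data known.

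The poly-A RNA was sequenced from 33 libraries, 3 for each tissue, of wild-type B73 plants. The labels state that no treatment was given, and all sample titles carry the code WW, which they do not spell out. The juvenile leaf was sampled as V2_LF, the green expanded blades of leaves 1 to 4 of a V2 seedling pooled together, and as V2_LF-I, the white immature parts of leaf 3 and the younger leaves of such a seedling. The adult leaf was sampled as PS_LF, the blade without midrib of the last ligulated leaf at pollen shed. In these 3 tissues each library came from 1 plant of the same greenhouse. The other plant tissues at pollen shed were the internode below the ear (PS_IN1), the tassel with fresh pollen (PS_TAS), the ear before pollination (PS_EAR) and the growing silks under the husk (PS_SILK). Pooled seedlings grown in perlite without direct light gave the hypocotyl (DAS4_HY) and the roots (DAS4_R) 4 days after sowing, and field plants gave whole seeds labelled 12 and 35 days after pollination (DAP12_S and DAP35_S). Growing place and season went with the tissue, and their parts in a difference between tissues cannot be told apart. The age of the leaf, its rank on the plant and the age of the plant likewise cannot be told apart between the V2 and the PS blades. Tissue labels were not checked against marker genes here.

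The first leaves of a maize plant are juvenile. Their epidermis is covered with crystals of epicuticular wax that make water bead, and it lacks the hairs of adult leaves, whose surface carries little of this wax. Plants that lose a glossy gene have seedling leaves with a shiny, wettable surface, which is how the genes were found. The wax is built from very-long-chain fatty acids, which are made in the epidermis by an elongase complex and then turned into aldehydes, alcohols, alkanes and esters. gl8 encodes the ketoacyl reductase of the elongase. gl2 encodes a protein of the BAHD acyltransferase family, related to Arabidopsis CER2, that is needed for the longest chains. gl1 encodes a membrane protein related to Arabidopsis CER3, which acts in wax synthesis after elongation. gl15 makes no wax. It encodes an AP2-type transcription factor that maintains juvenile epidermal identity, and its messenger RNA is a known target of the microRNA miR172, which accumulates as the plant becomes adult.

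The libraries held 15832186 to 42886946 reads on genes, with a median of 26898158, a read pair being counted once. Levels are given below as CPM, counts per 1000000 reads on the genes tested, after scaling by TMM, a factor for each library that keeps the bulk of the genes level between libraries. This factor matters for the expanded V2 blade. It was 0.479 to 0.481 in V2_LF, 0.793 to 0.856 in PS_LF and 0.993 to 1.10 in V2_LF-I. The 10 most counted genes held 13.5 to 14.0% of the gene reads in V2_LF, 9.5 to 11.5% in PS_LF and 4.46 to 4.77% in V2_LF-I. Other tissues did not keep this order. DAP35_S had a share of 22.4 to 25.4% with factors of 0.834 to 0.885, and PS_TAS 4.78 to 5.91% with 0.596 to 0.780. The cause of the low factor in V2_LF was not tested. Without the factor, the median log2 fold change of all genes tested fell by 0.71 in V2_LF against PS_LF. It was 1.09 in V2_LF-I against V2_LF and 0.27 in V2_LF-I against PS_LF. Comparisons of the 4 genes with V2_LF are therefore given on both scales where they differ in direction. Values of other genes are given with the factor only. Read counts also depend on gene length, which was not used here, so levels are compared between tissues and not between genes.

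**Figure D1:**
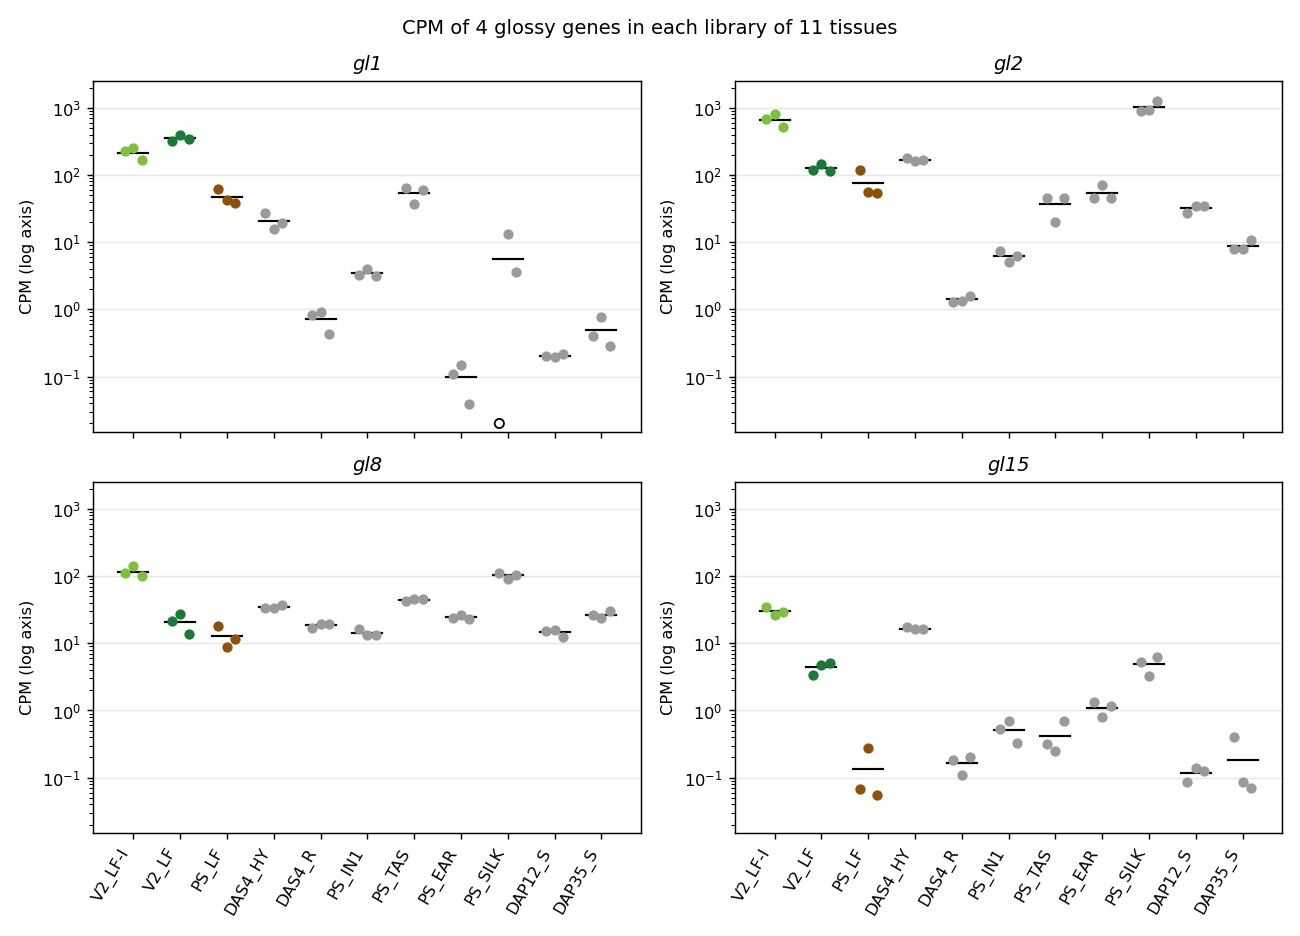
CPM (log axis) of gl1, gl2, gl8 and gl15 in each of the 33 libraries, by tissue. Each point is 1 library, the black line is the mean of the 3 libraries, light green marks V2_LF-I, dark green V2_LF and brown PS_LF, and the open circle at the bottom of the gl1 panel stands for silk replicate 1, which had 0 reads. The mean of gl1 was highest in V2_LF (351 CPM), that of gl2 in the silks (1023 CPM), and those of gl8 and gl15 in V2_LF-I (117 and 30.2 CPM).

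The regulator gl15 had the steepest profile across the leaf samples. The level of gl15 was 34.6, 26.7 and 29.2 CPM in the 3 libraries of V2_LF-I (30.2 ± 4.05 CPM, SD, n = 3), and 3.43, 4.75 and 5.01 CPM in those of V2_LF (4.40 ± 0.849 CPM). In PS_LF it was 0.0669, 0.281 and 0.0557 CPM, which are 2, 6 and 1 reads. The 3 leaf samples did not overlap, and the adult blade stood close to the level that 3 reads give. The hypocotyl came second of the 11 tissues with 17.3, 16.2 and 16.1 CPM, below every V2_LF-I library and clear of all tissues under it. The silks (4.96 ± 1.56 CPM) and V2_LF followed and overlapped each other. The ear was at 1.10 ± 0.270 CPM, and the internode, tassel, late seed, roots, PS_LF and early seed had means between 0.117 and 0.519 CPM, each overlapping the next in this order.

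gl1 was highest in the V2 leaf. In V2_LF its level was 318, 395 and 340 CPM (351 ± 39.8, SD, n = 3), and in V2_LF-I 226, 255 and 166 CPM (216 ± 45.1). No library of the remaining 9 tissues reached the lowest V2 library. The tassel (64.0, 37.3 and 60.2 CPM) and PS_LF (62.1, 42.0 and 37.7 CPM) came next and overlapped each other. Further down, the hypocotyl was at 20.8 ± 5.77 CPM and the internode at 3.46 ± 0.471 CPM. The roots (0.729 ± 0.258 CPM) and late seed (0.488 ± 0.256 CPM) overlapped each other. The early seed and the ear were lowest, with 7 reads in each library and with 3, 8 and 2 reads. Without the TMM factor the order of the V2 samples turned, with a mean of 168.7 CPM in V2_LF and 226.2 CPM in V2_LF-I.

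The silk libraries differed widely in gl1. Silk replicate 1 had 0 reads, which allows up to 0.0978 CPM, replicate 2 had 406 reads (13.4 CPM) and replicate 3 had 89 reads (3.56 CPM). The same 3 libraries gave 882, 921 and 1267 CPM for gl2 and 113, 91.1 and 105 CPM for gl8, so a spread of this size was not seen in gl2 or gl8. The fit shares 1 estimate of the spread per gene over all tissues. Without the silks the adjusted p of gl1 in V2_LF against PS_LF went from 0.000329 to 5.63e-09, at a log2 fold change of 2.87.

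gl2 had its highest level in the silks and not in a leaf. The silk libraries (mean 1023 ± 212 CPM, SD, n = 3) stood above those of V2_LF-I, at 683, 797 and 519 CPM (666.5 ± 140). The hypocotyl had 180, 162 and 168 CPM. The expanded V2 blade had 119, 146 and 114 CPM (126 ± 17.1) and the adult blade 119, 55.5 and 53.9 CPM (76.1 ± 37.0), so that PS_LF replicate 1 lay within the range of V2_LF. PS_LF, the ear (54.5 ± 15 CPM), the tassel (36.9 ± 14.6 CPM) and the early seed (32.3 ± 4.20 CPM) each overlapped the next in this order. The late seed (8.87 ± 1.66 CPM), the internode (6.27 ± 1.18 CPM) and the roots (1.40 ± 0.136 CPM) were lowest and did not overlap.

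gl8, the elongase reductase, was counted at a moderate level everywhere, and its highest tissue mean was 9.12 times its lowest. It was 110, 141 and 99.6 CPM in V2_LF-I (117 ± 21.7, SD, n = 3) and 103 ± 10.9 CPM in the silks, and these overlapped. The tassel (44.5 ± 2.16 CPM), the hypocotyl (34.8 ± 1.90 CPM) and the late seed (26.7 ± 2.85 CPM) followed, none overlapping the tissue above it. V2_LF had 21.4, 27.4 and 13.9 CPM and overlapped the late seed and the ear above it (24.4 ± 1.78 CPM) and the roots below it (18.5 ± 1.55 CPM). PS_LF had the lowest mean of the 11 tissues, with 18.1, 8.86 and 11.4 CPM (12.8 ± 4.79). It overlapped the internode (14.4 ± 1.85 CPM), which overlapped the early seed (14.6 ± 2.04 CPM). Maize has a close copy of gl8, and reads that mapped to more than 1 place were not counted, so the level of gl8 is uncertain to that extent.

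**Figure D2:**
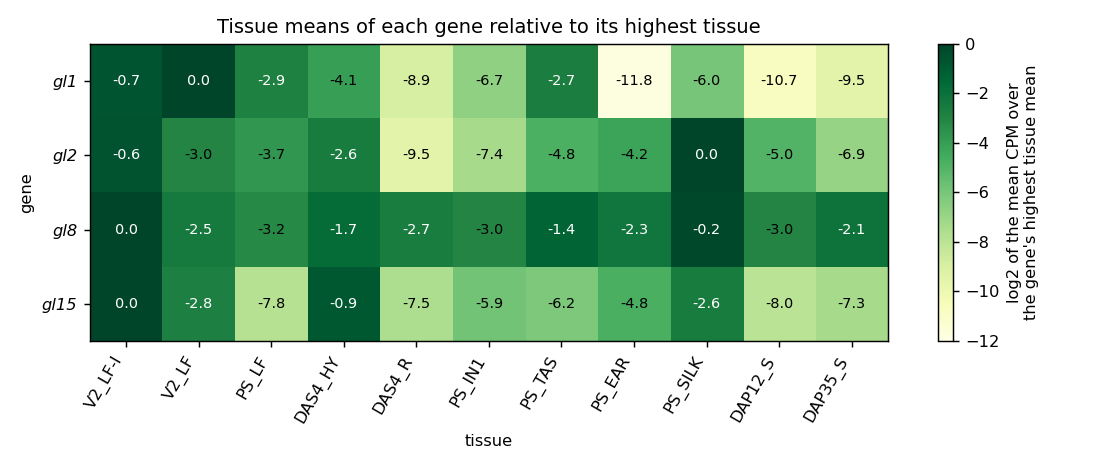
Mean CPM of each gene in each tissue as log2 of its ratio to the tissue where that gene was highest, so 0 is the highest tissue and lower numbers are paler. The row of gl8 is the most even, with its lowest mean in PS_LF, and the row of gl1 drops furthest, to the ear, followed by that of gl2, to the roots. Without the TMM factor V2_LF-I and not V2_LF would be the highest tissue of gl1.

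The main comparison was of the juvenile with the adult blade. V2_LF stood above PS_LF for gl15 and gl1 in every pair of libraries, 5.02 and 2.89 higher on the log2 scale, while gl2 and gl8 were 0.73 and 0.70 higher with overlapping libraries. The share of all genes without overlap was not computed. All 4 genes were called higher by edgeR's quasi-likelihood test at an adjusted p under 0.05, against 23.0% of the 28997 genes tested that were called higher and 23.4% called lower. The change of gl15 had an SE of 0.48, a 95% interval of 4.02 to 6.02 and an adjusted p of 5.05e-09. It rests on 134 reads in V2_LF and 9 in PS_LF, whose scaled ratio was 33.8 with an exact 95% counting interval of 17.3 to 75.6. Without PS_LF replicate 2, which held 6 of those 9 reads, the change was 6.04, above the upper limit of the edgeR interval. The change of gl1 had an SE of 0.61, an interval of 1.63 to 4.16 and an adjusted p of 0.000329 by the same test. Both kept their direction and call without the TMM factor, at 4.24 for gl15 and 2.11 for gl1.

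For gl2 and gl8 the call in this comparison depended on the scaling and on the samples fitted. The edgeR value for gl2 was 0.73 (SE 0.28, interval 0.15 to 1.31, adjusted p 0.0344) with the TMM factor and -0.06 (adjusted p 0.923) without it. For gl8 it was 0.70 (SE 0.21, interval 0.27 to 1.14, adjusted p 0.00713) with the factor and -0.08 (adjusted p 0.827) without it. Relative to the median of all genes, which was at -0.71 on the unscaled values, gl2 stood 0.65 and gl8 0.63 higher. Setting values against the median levels the bulk of the genes as the factor does, so it is not a separate check of the scaling. In the fit of only these tissues, with the factor, gl2 was at 0.72 (adjusted p 0.0945) and gl8 at 0.69 (adjusted p 0.121), and neither was called. PS_LF replicate 1, whose plant was harvested 3 days before those of replicates 2 and 3, held the highest PS_LF level of gl1, gl2 and gl8. Without it the scaled difference was 1.21 for gl2 (adjusted p 0.00083) and 1.05 for gl8 (adjusted p 0.000163). The call of gl2 was lost without PS_LF replicate 2 or 3 or V2_LF replicate 1 or 2, the value then lying between 0.53 and 0.76. The call of gl8 was lost without PS_LF replicate 2 (0.49) or V2_LF replicate 2 (0.43).

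**Figure D3:**
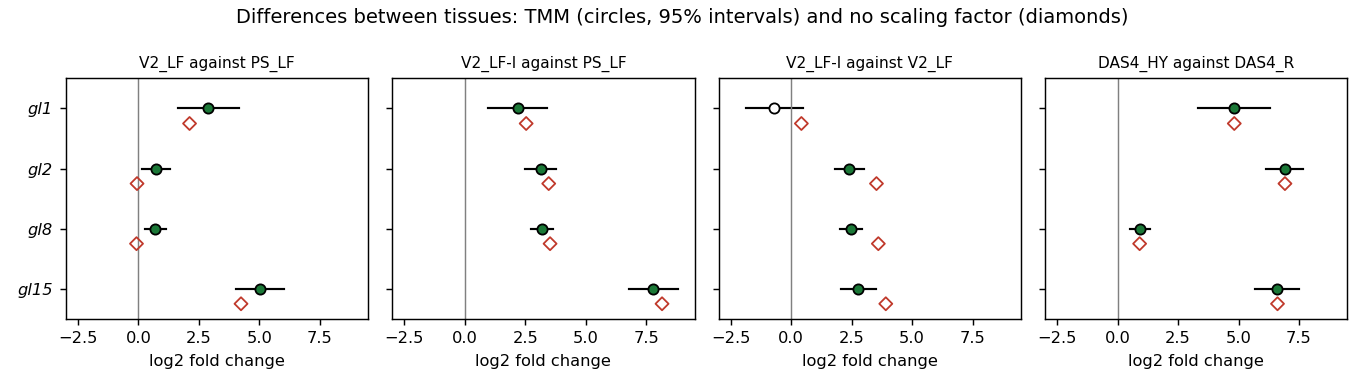
Log2 fold changes (x axis) of the 4 genes in 4 comparisons, the first tissue named over the second. Circles with lines are the TMM-scaled edgeR values with 95% intervals, filled where the adjusted p was under 0.05 and open where not, and diamonds are the values without a scaling factor. In V2_LF against PS_LF the diamonds of gl2 and gl8 lie at -0.06 and -0.08, on the other side of 0 from their circles, as does that of gl1 (0.42) in V2_LF-I against V2_LF.

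The immature V2 leaf was then compared with the adult blade, a comparison that uses the same PS_LF libraries. All 4 genes were called higher in V2_LF-I, where 34.6% of the genes tested were called higher and 33.2% lower. None of the 4 overlapped between the tissues, and the share of all genes without overlap was not computed. gl15 was 7.80 higher on the log2 scale (SE 0.48, interval 6.80 to 8.79, edgeR adjusted p 2.31e-13), and its reads were 2157 against 9. Without PS_LF replicate 2 it was 8.82 higher, above the upper limit of the edgeR interval. gl8 was 3.18 higher (SE 0.22, adjusted p 1.48e-12) and gl2 3.13 higher (SE 0.30, adjusted p 8.02e-10) by the same edgeR test. gl1 was 2.19 higher (SE 0.59, adjusted p 0.00201 by edgeR). Without the TMM factor the 4 values were 8.15, 3.52, 3.47 and 2.54 in the same order.

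Within the V2 seedling, gl2, gl8 and gl15 were all higher in the immature than in the expanded leaf, whereas gl1 was not. These 3 were called higher in V2_LF-I by edgeR, against 34.2% of the genes tested called higher and 31.3% called lower. The log2 fold changes were 2.40 for gl2 (SE 0.29, adjusted p 5.06e-08), 2.48 for gl8 (SE 0.21, adjusted p 9.33e-11) and 2.78 for gl15 (SE 0.35, adjusted p 8.02e-08). Without the TMM factor these values were 3.52, 3.6 and 3.91. The libraries of these genes did not overlap between the tissues, and the share of all genes without overlap was not computed. gl1 was at -0.70 (SE 0.57, interval -1.88 to 0.48, edgeR adjusted p 0.292) with the factor and at 0.42 (adjusted p 0.523) without it, so it was not called on either scale. Its scaled libraries did not overlap, and it was called lower in V2_LF-I in the fit of only these tissues (-0.69, adjusted p 0.00467) and in that without the silks (-0.65, adjusted p 0.0229).

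The ratio of gl1 to the other wax genes within a library needs no scaling. There were 2.68, 2.71 and 2.98 reads of gl1 for each read of gl2 in the libraries of V2_LF, 0.331, 0.320 and 0.321 in V2_LF-I and 0.523, 0.758 and 0.700 in PS_LF. The expanded V2 blade was thus apart from both other leaf samples, and the adult blade lay between them. Against gl8 the ratio was 14.9, 14.4 and 24.5 in V2_LF, 2.06, 1.80 and 1.67 in V2_LF-I and 3.43, 4.75 and 3.30 in PS_LF, again without overlap. These ratios were examined after the levels had been seen, and 3 libraries against 3 cannot give an exact two-sided permutation p below 0.10. In bulk samples such as these, fewer cells of a type, here of the epidermis, and less RNA per cell cannot be told apart.

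In the seedling 4 days after sowing, the comparison was between the aerial hypocotyl and the roots. All 4 genes were called higher in the hypocotyl, against 20.7% of the genes tested called higher and 22.7% called lower. None of the 4 overlapped with the roots, and the share of all genes without overlap was not computed. gl2 was 6.92 higher on the log2 scale (SE 0.37, edgeR adjusted p 3.68e-14) and gl15 6.60 higher (SE 0.43, adjusted p 1.79e-12). gl15 had 2205 reads in the hypocotyl and 22 in the roots, a scaled ratio of 98.6 with a counting interval of 65.0 to 158. gl1 was 4.82 higher (SE 0.72, adjusted p 4.83e-06 by edgeR), and gl8, which the roots also expressed at 18.5 CPM, was 0.91 higher (SE 0.20, adjusted p 0.000576 by edgeR). The TMM factor moved none of these values by as much as 0.02.

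The mean of both V2 samples was also compared with the mean of the other 9 tissues on the log2 scale. All 4 genes were called higher in the V2 leaf, against 30.2% of the genes tested called higher and 33.8% called lower. gl1 was 6.66 higher (SE 0.29, edgeR adjusted p 2.95e-17) and had no overlap, and the share of all genes without overlap was not computed. gl15 was 4.25 higher (SE 0.18, adjusted p 1.36e-17), gl2 3.08 higher (SE 0.13, adjusted p 1.67e-17) and gl8 0.94 higher (SE 0.11, adjusted p 1.41e-08) by the same edgeR fit. The last 3 genes overlapped with other tissues, gl15 with the hypocotyl and the silks and gl2 and gl8 with the silks among others. The call of gl8 does not describe both V2 samples. Its mean was 116.8 CPM in V2_LF-I but 20.9 CPM in V2_LF, below the 32.6 CPM of the other 9 tissues. For gl2 the plain mean of V2_LF (126 CPM) was likewise below that of the other 9 tissues (157 CPM). Without the TMM factor gl1 was 6.06, gl15 3.65, gl2 2.47 and gl8 0.33 higher (adjusted p of gl8 0.0164), and without the silks gl2 was 3.68 higher. The median of all genes in this comparison was -0.20 with the factor and -0.79 without it.

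The profiles over the 11 tissue means were then set against each other as a description, using log2 CPM (prior count 2). All genes share the same libraries and the tissues are not replicates, so no p is given. gl2, gl8 and gl15 had the more alike profiles, with a Pearson r of 0.690 for gl2 and gl8, 0.757 for gl2 and gl15 and 0.710 for gl8 and gl15. gl1 had an r of 0.447 with gl2, 0.258 with gl8 and 0.508 with gl15. Among the 21288 genes that averaged 10 CPM or more in some tissue, Zm00001d006624 (r = 0.966) and Zm00001d015743 (r = 0.962) were most like gl1, and 186 genes had an r over 0.9. Within the leaf, Zm00001d006624 kept the order of gl1, with 90.8 CPM in V2_LF, 51.3 in V2_LF-I and 31.4 in PS_LF. Zm00001d015743 did not, with 49.0, 16.9 and 61.4 CPM in the same order of tissues. In silk replicates 1 to 3 Zm00001d006624 had 0.522, 0.462 and 0.480 CPM and Zm00001d015743 had 0.489, 1.25 and 2.04 CPM, the latter lowest in replicate 1 as gl1 was. The other members had few such genes. Zm00001d032399 (r = 0.935) and Zm00001d027904 (r = 0.930) were most like gl2, of 6 over 0.9. Zm00001d049011 (r = 0.925) and Zm00001d035132 (r = 0.902) were most like gl8, of 3. Zm00001d024681 (r = 0.921) and Zm00001d039414 (r = 0.917) were most like gl15, of 2.

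Other genes of the pathway were taken by gene ontology terms from an annotation table held only in part, which gave 10 genes for wax, cuticle or very-long-chain fatty acid synthesis, 9 of them tested. In V2_LF against PS_LF, 2 of the 9 had 0 reads in both tissues and could not be called. Of the other 7, 0 were called higher and 3 lower by edgeR, against 23.0% and 23.4% of all genes, and their median log2 fold change was -0.31 where that of all genes was 0.00. Zm00001d034109, annotated to very-long-chain fatty acid biosynthesis, was at -3.51 (SE 0.44, edgeR adjusted p 2.97e-07), with means of 3.12 CPM in V2_LF and 35.4 CPM in PS_LF. Zm00001d002483, annotated to wax biosynthesis and cuticle development, was at -2.42 (SE 0.31, edgeR adjusted p 4.30e-07), with means of 0.806 and 4.33 CPM. In V2_LF-I against V2_LF, 4 of the 9 were called higher and 2 lower, where 34.2% and 31.3% of all genes were, with a median of 2.01 over the 8 that had reads. In V2_LF-I against PS_LF 4 were higher and 3 lower, where 34.6% and 33.2% of all genes were, with a median of 1.52 over 8. These counts differ by less than 1 gene from what those shares give for 9 genes. In the hypocotyl against the roots 1 was higher and 1 lower, where 20.7% and 22.7% of all genes were, and in the V2 leaf against the other 9 tissues 1 was higher and 3 were lower, where 30.2% and 33.8% of all genes were.

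Vegetative phase change, the passage from juvenile to adult leaves in which gl15 acts, was annotated to 3 genes of the same table. In V2_LF against PS_LF, Zm00001d011532 was higher (0.49, edgeR adjusted p 0.00684), Zm00001d022338 was lower (-0.84, adjusted p 6.01e-05) and the third was not called. These values are on the TMM scale only. That of Zm00001d011532 is smaller than the changes of gl2 and gl8 that turned negative without the factor. Of all genes, 23.0% were called higher and 23.4% lower in that comparison. In V2_LF-I, 1 was higher and 1 lower against PS_LF, and 1 was higher and 1 lower against V2_LF, comparisons in which 34.6% and 33.2%, and 34.2% and 31.3%, of all genes were. In the hypocotyl against the roots 1 was higher and 2 were lower, where 20.7% and 22.7% of all genes were. In the V2 leaf against the other 9 tissues 0 were higher and 2 lower, where 30.2% and 33.8% of all genes were. The precursors of miR156 and miR172, which act before gl15 in phase change, were listed as 11 and 4 genes and had 0 reads in all 33 libraries. Why the precursors had 0 reads was not tested. These libraries were made from poly-A RNA, and mature microRNAs were not measured.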

How the data were processed

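RNA of 33 libraries was measured by stranded poly-A sequencing. Per the labels and methods, reads went through Trimmomatic and sortMeRNA, which takes out ribosomal RNA, and the authors mapped the rest with STAR on B73 RefGen_v4. They deposited raw counts per gene and library, 1 file each with an unstranded, a forward and a reverse column. Reads placed on 1 gene only were counted. The reverse column was used here, since the kit places reads there. The 4 summary lines of a file, a median of 12.1% of its reads, were left out.

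edgeR 4.0.16 (R 4.3.3) was fitted once over all 33 libraries with a group for each tissue and 22 residual degrees of freedom, after filterByExpr (minimum count 10, minimum total 15) and TMM scaling. Quasi-likelihood tests were adjusted by Benjamini-Hochberg over all 28997 genes tested, and an adjusted p under 0.05 was called. Intervals on read ratios are exact binomial and cover counting error only. Replicates of the leaf tissues were separate plants, and no pair of replicates agreed within sampling noise (lowest chi-square per degree of freedom 8.42).

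Alternatives were RLE scaling, DESeq2 1.42.0, no filter, the unstranded column, only the tissues compared, the replicate number as a block and each library left out. Leaving out the silks and using no scaling factor were added after seeing the data. The members and lists were chosen with earlier results of these data known. The text names the 4 members, for each the 2 genes most alike by Pearson r among those with at least 10 CPM in a tissue, and from each list at most 2 genes called higher and 2 called lower in V2_LF against PS_LF. Gene names come from the choice of members. No sequences or genome positions are reported here. The younger seed is named as in the labels, 12 days after pollination.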

Additional observations from a re-analysis of the deposited data

Results flagged for a closer look

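Reads on the strand opposite to the genes, in the forward column that no comparison used, were above the 3 counts that a count of 0 allows for all 4 genes. Over the 33 libraries there were 33 such reads for gl1, which are 0.0933% of its reads on either strand (exact 95% interval 0.0642 to 0.131%), and 25 for gl8, or 0.0703% (0.0455 to 0.104%). There were 363 for gl2, or 0.203% (0.183 to 0.225%), with at most 58 in a single library, and 11 for gl15, or 0.212% (0.106 to 0.379%). Over all genes the forward column held 0.90 to 4.33% of the gene reads of a library, so each member was below that range. With the unstranded column every test of the 4 genes kept its direction and its call.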

How the results depend on the processing

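Of the 20 tests of the 4 genes, 17 kept their direction and call under every alternative run. The exceptions were gl2 and gl8 in V2_LF against PS_LF, and gl1 in V2_LF-I against V2_LF. Without a scaling factor gl2 went to -0.056 and gl8 to -0.078 in V2_LF against PS_LF. In the fit of only the tissues compared they were 0.72 (adjusted p 0.0945) and 0.69 (adjusted p 0.121), no longer called, while gl1 in V2_LF-I against V2_LF was called at -0.69, as it was without the silks at -0.65. Leaving out 1 library at a time gave 0.53 to 1.21 for gl2 and 0.43 to 1.05 for gl8 in V2_LF against PS_LF. DESeq2 gave 0.83 (adjusted p 0.0114) and 0.80 (adjusted p 0.000614) there, and RLE scaling with edgeR gave 0.83 and 0.80. Without a scaling factor the genes called higher and lower were 2973 and 14169 in V2_LF against PS_LF (6683 and 6772 with TMM), 16508 and 4064 in V2_LF-I against V2_LF (9912 and 9083), 12075 and 7124 in V2_LF-I against PS_LF (10020 and 9631), and 5500 and 15408 in the V2 leaf against the other 9 tissues (8768 and 9812). It also moved 24 of 44 tissue means by over 1 SD, V2_LF going to 168.7 CPM for gl1, 60.6 for gl2, 10.04 for gl8 and 2.11 for gl15. RLE moved 1 mean that far, that of gl8 in PS_TAS, to 47.9 CPM. The cause of the shift was not tested. Replicate numbers of the libraries were not taken as pairs. Same-numbered libraries of V2_LF and PS_LF deviated together with r from -0.098 to -0.039, and those of V2_LF-I and PS_LF with r from -0.008 to 0.001. Those of V2_LF-I and V2_LF had r from 0.080 to 0.127, where each library correlated best with its own number. For DAS4_HY and DAS4_R the r was 0.224, -0.052 and 0.106 in replicates 1 to 3, and only replicate 1 correlated best with its own number. With the replicate number as a block in edgeR, gl2 was 0.75 (adjusted p 0.0370) and gl8 0.70 in V2_LF against PS_LF, and no call changed. That block is shared by all tissues, so it cannot take up a pairing of the V2 samples alone. Depth limits gl15 in PS_LF, where a library held 1 to 6 reads, and in several other tissues. Its libraries held 3 to 5 reads in DAP12_S, 1 to 9 in DAP35_S, 4 to 10 in DAS4_R and 5 to 12 in PS_TAS. Depth also limits gl1 in the seeds and ear, with 7 reads in each DAP12_S library, 4 to 18 in DAP35_S and 2 to 8 in PS_EAR.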
